A study of Mus musculus with 6 samples.

Results

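The subunits of the nucleosome remodelling and deacetylase (NuRD) complex were examined in embryonic mouse kidneys with and without Sall1. The members are 10 genes, chosen by name: Chd4, Hdac1, Hdac2, Mta1, Mta2, Mta3, Mbd3, Rbbp4, Rbbp7 and Gatad2a. Every array probe whose RefSeq accession belongs to one of them was taken, which gave 16 probes of 9 genes among the 40987 probes that carried no outlier flag on any of 6 arrays. No probe carried the accession of Hdac1, so that gene has no value here. Chd4 and Rbbp4 had 3 probes each, Mta2, Mta3 and Gatad2a had 2 each, and Hdac2, Mta1, Mbd3 and Rbbp7 had 1 each. All 16 were well above background on all 6 arrays and none was saturated.

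NuRD joins an ATP-driven nucleosome remodeller to histone deacetylases in a single complex that lowers the activity of many promoters and enhancers. Sall1 is a DNA-binding zinc finger protein of the cap mesenchyme, whose progenitor cells form the nephrons. It binds NuRD through a short conserved stretch at its amino terminus, as its relatives do. The complex is found in most cell types, and whole kidneys were measured here, so these signals come from progenitors, their epithelial progeny, stroma, ureteric bud and other cells together.

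Total RNA of E14.5 kidneys from hybrids of 129 and C57BL/6 was hybridised to 1-colour Agilent arrays, 1 per sample. Sall1 was floxed in both lines. The Six2Cre knockouts (replicates 7 and 9), in which Cre acts in nephron progenitors, were set against Six2Cre controls (replicates 5 and 2). The tamoxifen-inducible CreER line gave 1 knockout (replicate 5, titled CreER/flox) and 1 control (replicate 2, titled wt/flox), with tamoxifen at E12.5 and collection 48 hours later. The Six2Cre line is assigned from titles that name no CreER together with the study design, and 1 description mentions tamoxifen for every sample. The labels do not say whether Six2Cre controls carried Cre, or whether the arrays came from separate embryos, so p-values measure the spread between these samples. Six2Cre knockout 7 and control 5 shared slide 1, and the other 4 arrays shared slide 2. Values are log2 signal minus the array's 75th percentile, so that 0 is the signal of the probe at that percentile, and differences are knockout minus control.

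On CreER knockout 5, 71.8% of probes were well above background, while the remaining arrays ranged from 80.0% to 82.9%. Its negative control spots had an SD of 4.01, against 1.46 to 1.61 elsewhere. Six2Cre control 2 stood apart in 8 muscle genes, whose summed signal, in units of the 75th percentile, was 28.5 there and between 0.807 and 2.25 on the other arrays. Values without Six2Cre control 2 are given for some probes with the processing alternatives. The CreER arrays, each a group of 1, add nothing to the spread in the Six2Cre test.

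The Sall1 probe itself gave -2.65 and -1.999 in Six2Cre knockouts 7 and 9, against -1.38 and -0.77 in Six2Cre controls 5 and 2. It gave -4.06 in the CreER knockout and -1.28 in the CreER control. Every knockout was thus below every control. Sall1 was 2.38-fold lower in Six2Cre knockouts (-1.25, SE 0.38, limma adjusted p = 0.642) and 6.86-fold lower in the CreER knockout. The labels do not say which part of Sall1 was floxed, so whether the probe lies inside it is unknown. A list of 10 nephron progenitor markers had a median difference of -1.11 in Six2Cre knockouts, with all 10 lower. In bulk kidneys, fewer cells of a type and less RNA per cell cannot be told apart.

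No NuRD subunit transcript passed the test between Six2Cre knockout and control kidneys. Over the 16 probes the median difference was -0.098, with 10 lower and 6 higher in knockouts, beside a median of 0.019 over all 34041 probes tested. Regardless of sign, the members' median difference was 0.22, beside 0.21 over all probes. Chd4 was the gene of largest difference below the control and Hdac2 that of largest difference above it. No member reached a 2-fold difference, which 5.58% of all probes did. The limma test with Benjamini-Hochberg adjustment over all probes called 0 members and 0% of all probes (members' adjusted p from 0.823 to 1.00). At an unadjusted p under 0.05 it held 1 of 16 members, beside 5.82% of all probes. With slide as a block 0 of 16 members lay under that p, beside 11.3% of all probes. Adding eBayes trend and robust to the slide block called 1.88% of all probes at an adjusted p under 0.05 and again no member (lowest adjusted p 0.304).

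**Figure D1:**
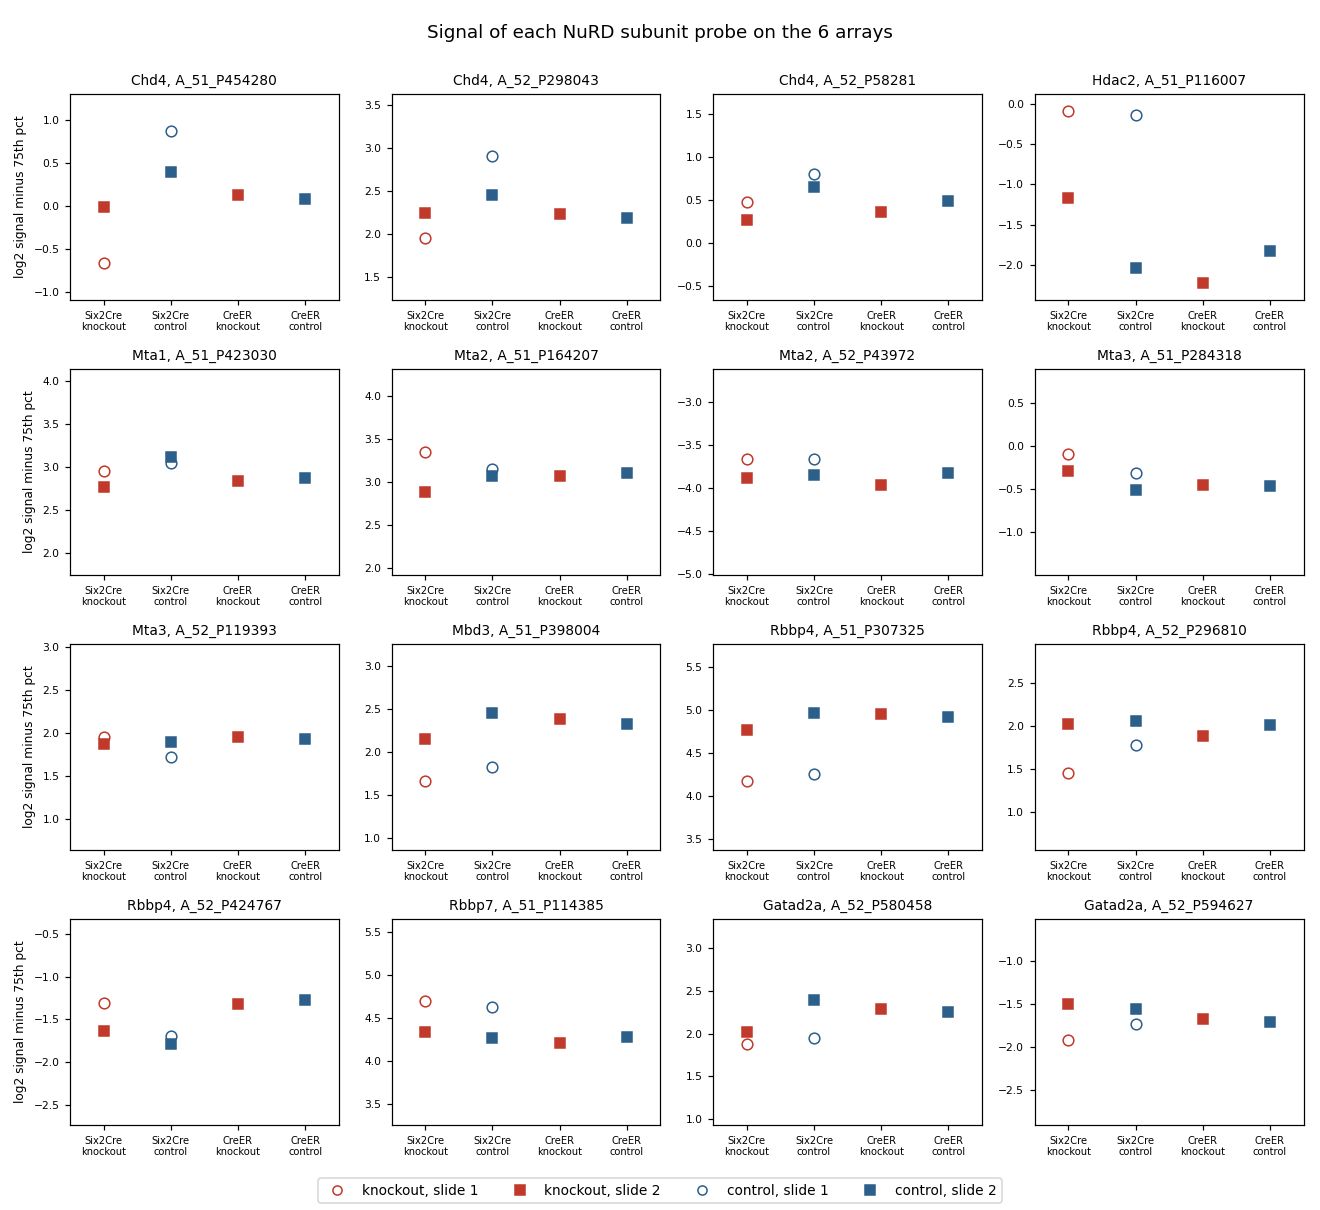
Log2 signal minus the array's 75th percentile (vertical axes) of each of the 16 NuRD subunit probes by group, 1 point per array. Open circles are the slide 1 arrays and filled squares the slide 2 arrays, with knockouts in red and controls in blue. All Chd4 panels show both Six2Cre knockouts below both Six2Cre controls, and the Hdac2 panel shows both slide 1 arrays above the 4 slide 2 arrays.

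Chd4 encodes the ATPase that gives the complex its remodelling activity, and its 3 probes were all lower in Six2Cre knockouts. Probe A_51_P454280 gave -0.67 and -0.0059 in knockouts 7 and 9, against 0.88 and 0.40 in controls 5 and 2. Its difference was -0.97 (SE 0.36, 95% interval -1.90 to -0.045, limma adjusted p = 0.823), a 1.96-fold lower signal. Both knockouts lay below both controls, but the slide 1 arrays differed by -1.54 and the slide 2 arrays by -0.41.

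Probe A_52_P298043, the brightest of Chd4, gave 1.96 and 2.25 in knockouts 7 and 9, against 2.91 and 2.45 in controls 5 and 2. The groups again did not overlap, and the difference was -0.58 (SE 0.30, interval -1.36 to 0.20), with -0.96 on slide 1 and -0.21 on slide 2. The third probe, A_52_P58281, gave 0.48 and 0.27 in the knockouts, against 0.81 and 0.65 in the controls, a difference of -0.36 (SE 0.26, interval -1.03 to 0.32). This one differed by about as much on slide 1 (-0.33) as on slide 2 (-0.39). The 3 probes report on the same transcripts and are not replicates of each other.

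In the CreER line Chd4 probes A_51_P454280, A_52_P298043 and A_52_P58281 differed by 0.050, 0.037 and -0.13. Probe A_51_P454280 gave 0.13 in the CreER knockout and 0.077 in the CreER control, and A_52_P298043 gave 2.23 and 2.19 in the same order. Probe A_52_P58281 gave 0.36 in the CreER knockout and 0.50 in the CreER control. For all 3 probes the CreER knockout and the CreER control lay below both Six2Cre controls. The difference between lines (Six2Cre minus CreER) was -1.02 for A_51_P454280, with a 95% interval from -2.63 to 0.59 and a limma adjusted p of 1.00. It was -0.62 for A_52_P298043 (interval -1.97 to 0.73) and -0.22 for A_52_P58281 (interval -1.39 to 0.94). These differences between lines were fitted without slide, although the Six2Cre arrays lay on 2 slides and both CreER arrays on slide 2. In that fit the lines were not shown to differ at any of the 3 probes.

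Among the members with several probes, only Chd4 had more than 1 probe whose Six2Cre groups were separate. Hdac2, Mta1, Mbd3 and Rbbp7, with 1 probe each, could not. In all, 6 of 16 member probes did not overlap between Six2Cre knockouts and controls, beside 29.5% of all probes. They were the 3 of Chd4 and 1 each of Mta1, Mta3 and Rbbp4. Of the 16, 13 had the same sign on both slides, beside 59.1% of all probes. Of these, 9 were lower on both, beside 25.5% of all probes, and 4 were higher on both. The 9 include 3 probes of Chd4 and 2 of Rbbp4. Taken by the brightest probe of each gene, 5 of 9 members were lower on both slides, beside 4071 of 15236 named genes. With the CreER arrays included, 1 member probe separated all 3 knockouts from all 3 controls, beside 10.8% of all probes. That was Chd4 A_52_P58281, whose knockout values ran from 0.27 to 0.48 and whose control values ran from 0.50 to 0.81.

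The stretch upstream of the annotated Chd4 start site is shown because Chd4 was the only member lower with each of its several probes on both slides, and that of Rbbp7 because its signal differed least between genotypes among the members with a single probe. Both are from RefSeq (GRCm38.p6), 250 bases on the plus strand, at chr6:125095731-125095980 for Chd4 and chrX:162760122-162760371 for Rbbp7. Capitals mark GC boxes, GGGCGG or its reverse complement CCGCCC.
Chd4: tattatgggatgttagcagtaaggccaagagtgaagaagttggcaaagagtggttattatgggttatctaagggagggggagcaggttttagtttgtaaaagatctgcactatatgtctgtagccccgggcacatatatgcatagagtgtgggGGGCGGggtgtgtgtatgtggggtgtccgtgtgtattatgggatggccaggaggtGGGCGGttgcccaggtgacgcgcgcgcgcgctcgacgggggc
Rbbp7: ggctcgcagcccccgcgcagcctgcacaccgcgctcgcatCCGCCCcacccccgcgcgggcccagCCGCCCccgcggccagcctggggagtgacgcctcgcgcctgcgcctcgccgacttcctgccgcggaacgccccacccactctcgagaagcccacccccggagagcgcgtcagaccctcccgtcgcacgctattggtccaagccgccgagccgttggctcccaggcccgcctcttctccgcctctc

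Each of the 2 stretches held 2 GC boxes. A promoter was found for 8 of the 10 members, and all 8 held a GC box on either strand, beside 32.9% of 27025 genes. They held 12 to 39 CpG sites in the 250 bases, with Chd4 the lowest at 12 and Mta1 the highest, beside a median of 6 over all genes. A CCAAT box (CCAAT or ATTGG) was in 4 of 8, beside 34.5% of all genes, and a TATA box (TATAAA or TTTATA) in 1 of 8, beside 13.0%. These counts are descriptions of the letters in the window. For each gene the first listed start site was used, and the Hdac2 window lay almost wholly within the annotated gene. The Rbbp7 stretch had 34 CpG sites.

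Hdac2, a class I histone deacetylase of the complex, had the largest difference above the control, and its signal followed the slide more than the genotype. Probe A_51_P116007 gave -0.085 and -1.17 in Six2Cre knockouts 7 and 9, against -0.14 and -2.03 in controls 5 and 2. The CreER knockout gave -2.23 and the CreER control -1.83. The 2 slide 1 arrays were thus near the 75th percentile whatever their genotype, and the 4 slide 2 arrays were all far below it.

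The Six2Cre difference of Hdac2 was 0.46 (SE 0.74, interval -1.47 to 2.39), made up of 0.060 on slide 1 and 0.86 on slide 2. With slide as a block the SE was 0.27 and the interval ran from -0.32 to 1.24 (limma adjusted p = 0.619). In the CreER line the Hdac2 value was -0.40, opposite in sign. The difference between slides on the Six2Cre arrays was -1.49 (slide 2 minus slide 1), or 2.81-fold, and Hdac2 was the 1 member probe of 16 at least 2-fold apart between slides, beside 8.40% of all probes.

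**Figure D2:**
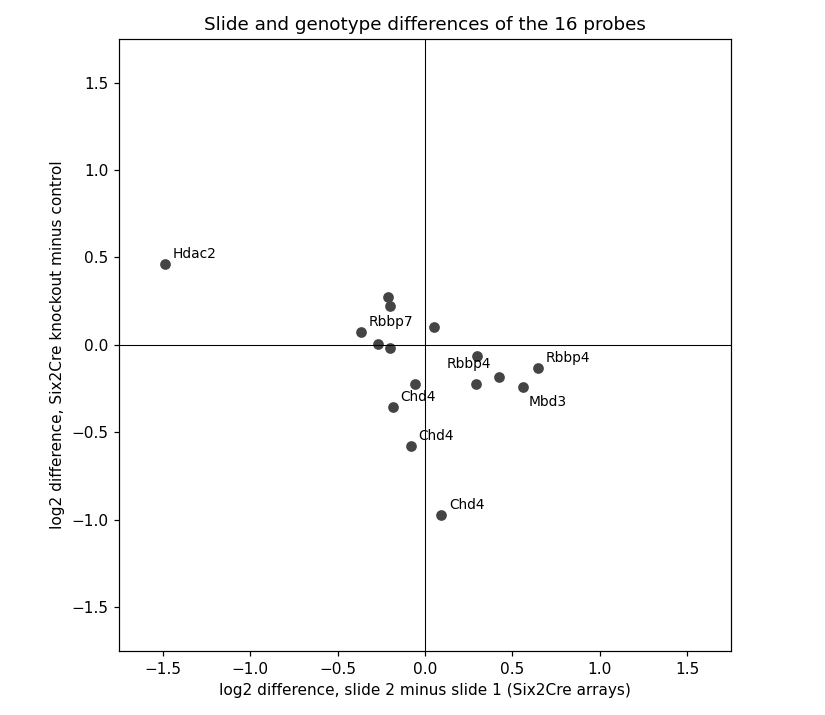
Each point is 1 of the 16 NuRD subunit probes, placed by its log2 difference between slides (horizontal, slide 2 minus slide 1, mean of the Six2Cre arrays) and between Six2Cre knockout and control (vertical). Hdac2 lies far left at -1.49, the Chd4 probes lie low with slide differences between -0.19 and 0.093, and the remaining probes lie between -0.24 and 0.27 on the genotype axis.

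Other subunits also differed between slides. Over the 16 probes, 9 had no overlap between the 4 arrays of slide 2 and the 2 of slide 1, beside 46.7% of all probes. The brightest Rbbp4 probe was higher on slide 2 by 0.65 and the Mbd3 probe by 0.56, whereas Rbbp7 was lower there by 0.36. The size of the slide difference was a median of 0.24 over the members and 0.34 over all probes. Slide, scan and the embryos on each slide cannot be told apart.

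The Mta proteins are the scaffold on which the deacetylases are assembled. Mta1 gave 2.95 and 2.77 in Six2Cre knockouts 7 and 9, against 3.05 and 3.11 in controls 5 and 2. The knockouts lay below the controls without overlap, by a mean of 0.22 (difference -0.22, SE 0.25, interval -0.88 to 0.43). In the CreER line Mta1 gave 2.83 in the knockout and 2.86 in the control.

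Mta2 showed no common direction. Its probe A_51_P164207 gave 3.34 and 2.89 in Six2Cre knockouts 7 and 9, against 3.15 and 3.07 in controls 5 and 2, so that the control values lay between those of the knockouts. The difference was 0.0047 (SE 0.29, interval -0.74 to 0.75), and its sign turned under quantile normalization and normexp background. The dimmer probe A_52_P43972 ran from -3.88 to -3.67 in the knockouts and from -3.85 to -3.66 in the controls, and its sign turned under quantile normalization and median scaling.

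Mta3 was the paralog with both probes above 0. Probe A_51_P284318 gave -0.088 and -0.29 in Six2Cre knockouts 7 and 9, against -0.31 and -0.51 in controls 5 and 2, a difference of 0.22 (SE 0.26, interval -0.46 to 0.90) that was 0.22 on either slide. Across the slides, though, knockout 9 was at about the level of control 5. Probe A_52_P119393 gave 1.95 and 1.87 in the knockouts, against 1.72 and 1.90 in the controls, which overlapped. In the CreER line both Mta3 probes differed by 0.024 or less.

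Mbd3, a subunit of the methyl-CpG-binding domain family, gave 1.66 and 2.15 in Six2Cre knockouts 7 and 9, against 1.82 and 2.45 in controls 5 and 2. The knockout was lower within each slide (-0.17 and -0.31), while the groups overlapped across slides. The difference was -0.24 (SE 0.35, or 0.18 with slide as a block), and its sign turned when knockout 7 or control 2 was left out. The CreER arrays gave 2.38 in the knockout and 2.33 in the control, a difference of opposite sign.

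Gatad2a bridges the deacetylase part of the complex to Chd4. Its brighter probe, A_52_P580458, gave 1.87 and 2.02 in Six2Cre knockouts 7 and 9, against 1.95 and 2.39 in controls 5 and 2 (difference -0.23, SE 0.29, interval -0.97 to 0.52). Without control 2 the difference was -0.0034, and without control 5 it was -0.45. The groups overlapped, and most of the difference lay on slide 2 (-0.38, against -0.075 on slide 1). The other probe, A_52_P594627, differed by -0.064 (SE 0.28), with opposite signs on the slides. In the CreER line both Gatad2a probes were higher in the knockout by 0.042 or less.

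Rbbp4 and Rbbp7 are histone-binding WD40 proteins that also serve other chromatin complexes. The brightest Rbbp4 probe, A_51_P307325, gave 4.17 and 4.77 in Six2Cre knockouts 7 and 9, against 4.25 and 4.96 in controls 5 and 2 (difference -0.13, SE 0.38). Rbbp4 probe A_52_P296810 differed by -0.19 (SE 0.32) and A_52_P424767 by 0.27 (SE 0.27). In A_52_P424767 the knockouts 7 and 9 gave -1.30 and -1.64, against -1.70 and -1.79 in controls 5 and 2. The Rbbp4 probes therefore disagreed in sign. Rbbp7 gave 4.70 and 4.33 in knockouts 7 and 9, against 4.62 and 4.26 in controls 5 and 2, a difference of 0.075 (SE 0.29) that was 0.079 on slide 1 and 0.072 on slide 2.

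**Figure D3:**
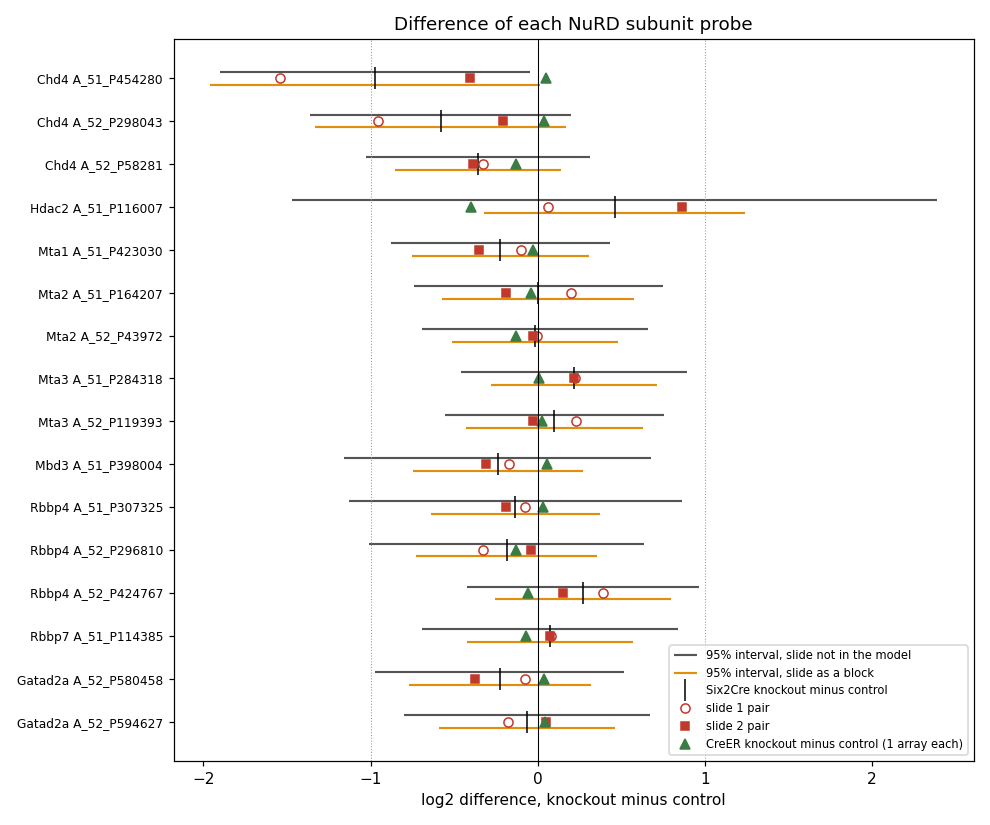
Log2 difference (horizontal axis) of each NuRD subunit probe. Black ticks are the Six2Cre knockout minus control differences, with 95% limma intervals without slide (grey) and with slide as a block (orange); red symbols are the 2 slides' own differences, green triangles the CreER difference of 1 array each, and dotted lines 2-fold. Of the grey intervals 1 excludes 0 (Chd4 A_51_P454280), and all orange intervals include 0.

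The intervals show how large a difference each fit leaves possible. The fit without slide had 2 residual degrees of freedom and the fit with the slide block had 1. Their SEs therefore draw, through eBayes, on the spread of all probes as well as on the probe's own. Without slide in the model, 9 of 16 intervals lay wholly within a 2-fold difference either way. With slide as a block 13 of 16 did. The 3 exceptions under the block were Chd4 A_51_P454280 (-1.96 to 0.012), Chd4 A_52_P298043 (-1.33 to 0.17) and Hdac2. These intervals are not adjusted for the number of probes.

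In the CreER line no member was 2-fold apart, beside 3.26% of the probes well above background on either array. The median of the 16 CreER differences was -0.010, with 8 higher and 8 lower, and they ran from -0.40 (Hdac2) to 0.057 (Mbd3). With 1 array a group these differences have no test. The difference between lines was under an unadjusted p of 0.05 for 0 of 16 members, beside 2.13% of all probes (limma, lone CreER arrays assumed to vary like the Six2Cre groups). Every one of its intervals, fitted without slide, reached 2-fold in at least 1 direction. A fit that pooled the genotype difference of both lines, adjusted for line and for slide, gave 0 of 16 under an unadjusted p of 0.05, beside 9.21% of all probes. In it Chd4 A_52_P58281 was -0.28 (SE 0.12, limma adjusted p = 0.580), the lowest p of the members.

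Genes that work beside NuRD were examined by lists, each gene by its brightest probe. The NuRD paralogs and accessory subunits had 5 of 7 lower and 2 higher in Six2Cre knockouts, with a median of -0.094, beside 0.040 over all 15236 named genes. On slide 1, 5 of these paralogs and subunits were lower and 2 higher (median -0.063). On slide 2, 3 of them were lower and 4 higher (median 3.9e-05). Their lowest p values were those of Chd5, a remodeller related to Chd4 (0.42, SE 0.34), and Gatad2b, the paralog of Gatad2a (-0.46, SE 0.38). Chd5 was 0.52 on slide 1 and 0.32 on slide 2, and Gatad2b -0.92 and 3.9e-05 in the same order. None of the 7 passed the test with or without the slide block.

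Sall1 itself is 1 of 4 Sall genes, and Sall3 was lower still than Sall1 in the Six2Cre line. Sall3 gave -4.55 and -4.47 in Six2Cre knockouts 7 and 9, against -2.07 and -1.93 in controls 5 and 2, a 5.71-fold lower signal (-2.51, SE 0.25, limma adjusted p = 0.107). With the slide block, eBayes trend and robust, a setting an earlier analysis had chosen after seeing these data, the adjusted p was 0.00779 for Sall3 and 0.0348 for Sall1. Sall2 (-0.20, SE 0.26) and Sall4 (0.24, SE 0.33) did not pass in any of these settings. Of 6 other factors known to recruit NuRD, 4 were higher and 2 lower, with a median of 0.21, and none passed. The 2 lower were Bcl11b (-0.82, SE 0.38) and Zfpm1 (-0.53, SE 0.26), while Zfpm2 (0.53, SE 0.46, opposite signs on the slides) and Bcl6 (0.45, SE 0.26) were the highest. Zfpm2 and Bcl6 were named after their values were seen. The list of 6 factors turned between slides, with 4 lower on slide 1 (median -0.16) and 4 higher on slide 2 (median 0.17).

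Among complexes that share subunits with NuRD, the polycomb complex PRC2 held 1 gene that stood out. Phf19, an accessory subunit of PRC2, gave -0.85 and -0.53 in Six2Cre knockouts 7 and 9, against 0.79 and 1.07 in controls 5 and 2. It was 3.07-fold lower (-1.62, SE 0.28, limma adjusted p = 0.252; 0.00733 with the slide block, trend and robust). The CreER knockout gave 1.25 and the CreER control 1.26. The 9 genes of PRC2 had a median of -0.094, with 8 lower and 1 higher, and the list's median lay near that of the NuRD paralogs. On slide 1, 8 were lower and 1 higher (median -0.22), whereas on slide 2, 5 were lower and 4 higher (median -0.0080).

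The Sin3, CoREST and CAF-1 lists, which share subunits with NuRD, had no gene past the test. Neither did the list of NCoR, SMRT and other class I histone deacetylases. The 10 Sin3 genes had a median of -0.032, with 5 lower and 5 higher. Arid4a was -0.52 (SE 0.38), with -1.09 on slide 1 and 0.056 on slide 2. Ing1 was -0.32 (SE 0.26), with -0.52 and -0.12 in the same order. The 7 CoREST genes had a median of -0.094 with 5 lower, among them Rcor3 (-0.54, SE 0.44) and Hmg20b (-0.54, SE 0.49). Rcor3 was -0.83 on slide 1 and -0.25 on slide 2, and Hmg20b -0.98 and -0.10 in the same order. The 7 genes of the NCoR, SMRT and other deacetylase list had a median of -0.019. Tbl1x was -0.42 (SE 0.37), and Hdac8, a class I histone deacetylase, 0.32 (SE 0.31). The 2 CAF-1 subunits, Chaf1a (-0.34, SE 0.43) and Chaf1b (-0.26, SE 0.33), had a median of -0.30. These counts cover the Six2Cre test without slide, with slide as a block, and with the block, trend and robust.

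Of the other ATP-driven remodellers, the ISWI list ran from -1.14 to 0.86 and the BAF list from -0.68 to 0.35. In the ISWI list of 6 genes 5 were lower and 1 higher, with a median of -0.57 that was -0.80 on slide 1 and -0.25 on slide 2. Smarca1, an ISWI ATPase, was higher: it gave 2.90 and 2.28 in Six2Cre knockouts 7 and 9, against 1.92 and 1.55 in controls 5 and 2 (0.86, SE 0.34, limma adjusted p = 0.874; 0.0451 with the slide block, trend and robust). The 14 BAF genes had a median of -0.093, with 11 lower and 3 higher. Smarca4, the BAF ATPase, was -0.68 (SE 0.33), with -1.12 on slide 1 and -0.23 on slide 2. The alternative BAF ATPase, Smarca2, named after its value was seen, was 0.35 (SE 0.28), with 0.38 on slide 1 and 0.33 on slide 2, and neither passed.

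**Figure D4:**
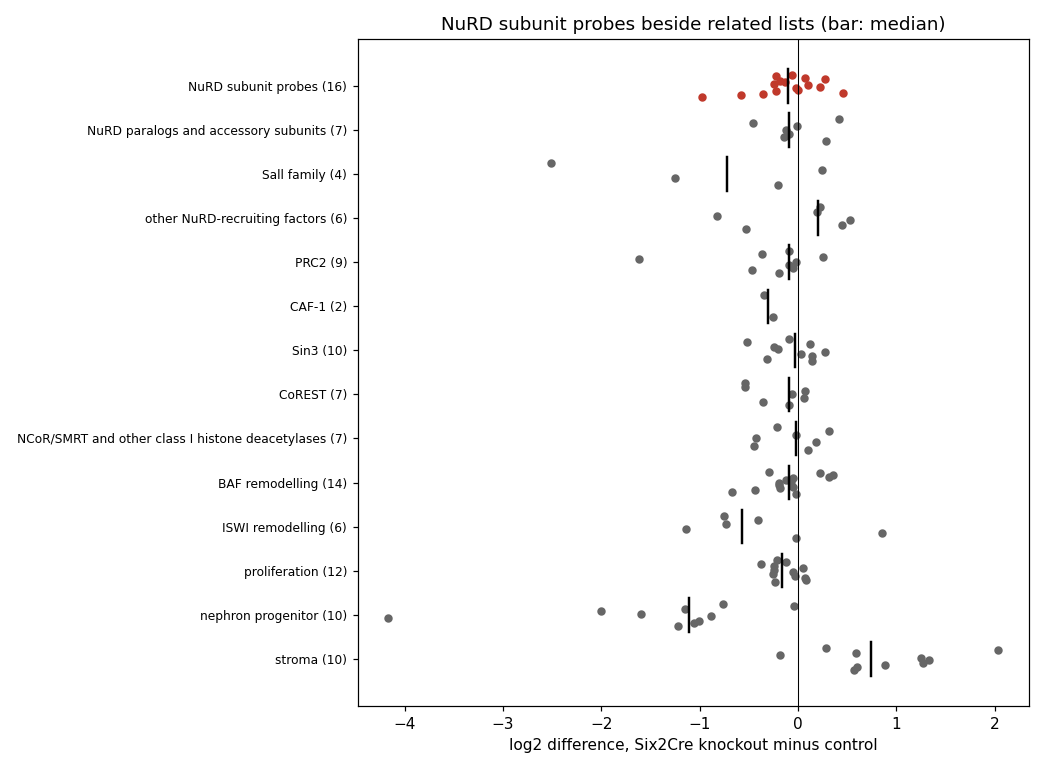
Log2 difference between Six2Cre knockout and control (horizontal axis) for the 16 NuRD subunit probes (red) and for each gene of the related and marker lists (grey, brightest probe, number in brackets); vertical bars are medians. The NuRD probes lie between -0.97 and 0.46, whereas the nephron progenitor markers centre on -1.11 and the stroma markers on 0.74.

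Levels of cell type and cell cycle markers stood as follows beside these values. The summed signal of the 10 nephron progenitor markers was 14.4 and 14.47 in Six2Cre knockouts 7 and 9, against 37.0 and 43.97 in controls 5 and 2. That of the 10 stroma markers was 186 and 158 in the knockouts, against 111 and 91.7 in the controls. The 12 proliferation genes had a median of -0.17, with 9 lower and 3 higher, none past the test (Mcm3 -0.38, SE 0.31; Top2a -0.25, SE 0.25). On slide 1 that list was split, 6 higher and 6 lower (median -0.010), while on slide 2 all 12 were lower (-0.24). Of 5 endothelial markers 4 were higher, as were 4 of 5 macrophage markers, 4 of 4 erythroid markers and 5 of 10 ureteric bud markers, while 8 of 8 muscle genes were lower (0.42 at the median on slide 1 and -4.33 on slide 2). The part of these levels in the Chd4 values was not tested.

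The patterns most like those of Chd4 and Hdac2 over the 6 arrays were sought among 13626 named genes outside the lists. For the brightest Chd4 probe they were Ubn1, Ubxn2a, Nr4a2, Sgo2a and Cnot6l, with Pearson r from 0.984 to 0.994. For Hdac2 they were Slc25a36, Pex2, Fndc3a, Fbxl5 and Mthfd2l, with r from 0.998 to 0.999. These r describe 6 arrays that share slides and genotype groups, and with so many genes searched high values are found readily.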

How the data were processed

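The authors labelled 0.25 ug of total RNA per sample with Cy3, per the labels. Per the file headers, spots were read with Agilent Feature Extraction 10.5.1.1, whose processed signal is a linear intensity after background subtraction and spatial detrending; raw spot and background columns are median pixel intensity. The table deposited for the whole series repeats this intensity (100% of single-spot values within a relative tolerance of 0.001). The deposited flags (other columns) mark spots well above background, saturated or outlying.

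Spots without outlier flags were averaged per probe, each array's 75th percentile of log2 signal was subtracted. Probes were named through RefSeq accessions without versions (24999 probes, 17235 genes, GRCm38.p6 annotation). The array design uses another build, so positions are given only for the upstream stretches of Chd4 and Rbbp7, in GRCm38.p6. Probes well above background on at least 2 of 6 arrays were kept (34041). One limma fit of 4 groups (limma 3.58.1, R 4.3.3; lmFit, eBayes, two-sided, Benjamini-Hochberg at 0.05) tested Six2Cre knockouts against controls and compared that difference with the CreER one; another fit pooled the genotypes of both lines, adjusted for line and slide. The number of arrays limits the precision. Alternatives were slide as a block, eBayes trend and robust, normexp (offset 50), quantile and median scaling, the filter on dim probes, 1 probe per gene, the deposited table and leaving out arrays. Figures used matplotlib 3.10.9 in Python 3.11.15.

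The members, gene lists and tests were chosen with earlier results of these arrays known. All member probes are described. From each related list, genes at least 0.5 log2 units apart with the same sign on both slides were eligible to be named, otherwise the 2 of lowest p; of the ISWI list Smarca1 is given with the report and the rest with the closing observations. A few further genes are marked as named after their values were seen. For the member of largest difference each way, the 5 genes of highest r were named.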

Additional observations from a re-analysis of the deposited data

How the results depend on the processing

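The count of probes called in the Six2Cre comparison was 0 and stayed 0 in all alternatives except 2: 639 (295 higher, 344 lower) with slide as a block, eBayes trend and robust, and 147 (35 higher, 112 lower) with median scaling. The cause of the second was not tested, and none of the 16 member probes was called in either. The count for genotype over all 6 arrays was 0, and 25 with normexp background. The difference between lines called 0 in every alternative run. The members' median Six2Cre difference of -0.098 was -0.060 with median scaling, -0.13 with 1 probe per gene, and between -0.21 and -0.039 when each Six2Cre array was left out in turn: -0.21 without control 5, -0.19 without knockout 9 and -0.039 without control 2. The members' CreER median of -0.010 was -0.043 with normexp background. Signs turned in these cases. With each Six2Cre array left out in turn, Hdac2 ranged from -0.48 (without control 2) to 1.41, Mta2 A_51_P164207 from -0.22 (without knockout 7) to 0.23, Mta2 A_52_P43972 from -0.12 to 0.091 (without knockout 9), and Mbd3 from -0.55 to 0.076 (without control 2). Rbbp4 A_51_P307325 ranged from -0.49 to 0.22 (without control 2), Rbbp4 A_52_P296810 from -0.47 to 0.098 (without knockout 7), Rbbp7 from -0.11 (without knockout 7) to 0.26, and Gatad2a A_52_P594627 from -0.27 to 0.14 (without knockout 7). Leaving out 1 array leaves the groups unequal between slides, so slide differences enter these values. Mta2 A_51_P164207 was -0.0014 with normexp background and -0.040 with quantile normalization. Mta2 A_52_P43972 was 0.017 with quantile normalization and 0.022 with median scaling. Signs held in the other 8 probes, with sizes that moved. With each array left out in turn Gatad2a A_52_P580458 ranged from -0.45 (without control 5) to -0.0034 (without control 2), Mta3 A_52_P119393 from 0.012 (without control 5) to 0.19 (without control 2), Mta3 A_51_P284318 from 0.12 (without knockout 7) to 0.32 (without knockout 9), Mta1 from -0.31 (without knockout 7) to -0.13 (without knockout 9) and Rbbp4 A_52_P424767 from 0.11 (without knockout 7) to 0.44 (without knockout 9). The Chd4 probes stayed below 0 in every alternative run, from -1.30 to -0.64 for A_51_P454280, from -0.81 to -0.35 for A_52_P298043 and from -0.46 to -0.25 for A_52_P58281. No paired analysis was possible because the groups compared share fewer than 2 replicate numbers, as far as pairing by number goes; pairing by slide, which holds 1 Six2Cre knockout and 1 control each, is the slide block given above.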

Other observations

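Besides Smarca1, 3 genes of the ISWI list, which are partners of its ATPases, were at least 0.5 log2 units apart in the Six2Cre line with the same sign on both slides. Baz1a was -1.14 (SE 0.57), with -1.69 on slide 1 and -0.59 on slide 2. Baz1b was -0.75 (SE 0.38), with -1.17 and -0.33 in the same order, and Baz2a -0.74 (SE 0.47), with -0.95 and -0.52. In the CreER pair these 3 genes were 0.046, -0.24 and 0.14. None passed in any of the 3 Six2Cre tests.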
